A study of Drosophila melanogaster with 24 samples.

Results

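Embryos of Drosophila melanogaster carrying alleles 1 and 20 of sima were followed over one step of embryogenesis, from a collection labelled 8-12 h to one labelled 12-16 h. The comparison rests on 6 of the 24 samples of the series, 3 at each stage, all with the genotype Sima 1/20. The question was which of the developmental changes in RNA level of this interval went ahead without a normal sima gene and which fell short. The same interval in 6 embryo samples of the heterozygous genotype Sima 1/+ served as the control, so allele 1 was carried by both genotypes and the control embryos had 1 unmutated copy of the gene. A further 6 embryo samples at 16-20 h, 3 of each genotype, were used to see what became of the genes that differed. The labels do not say what lesion either allele carries, nor whether the samples of a group came from separate collections, so every p-value measures the spread between these samples only. RNA came from whole embryos, and fewer cells of a type cannot be told apart from less RNA per cell.

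The protein encoded by sima is the fly HIF-1 alpha, a basic helix-loop-helix PAS transcription factor. With its partner Tango it binds DNA and turns on genes for glycolysis, for lactate production and for the response to low oxygen. In normal oxygen a prolyl hydroxylase, Hph, marks the protein for destruction through the Vhl ubiquitin ligase. The interval studied here is the part of embryogenesis in which cell divisions of the epidermis and nervous system come to an end, muscles, neurons and tracheae differentiate, and the epidermis begins to secrete the larval cuticle. A set of glycolytic genes is also switched on in the middle of embryogenesis, which prepares the sugar-burning metabolism of the larva.

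The values were FPKM, fragment numbers scaled to the length of the transcript and the size of the library, and the estimated depth was 10.1 to 13.4 M fragments in the 12 samples of the 4 groups. The table covered 10889 genes of chromosome arms 2R, 3L and 3R, and 6784 of them reached an FPKM of 1 in at least 3 of the 18 embryo samples and were tested. Log2 changes below are on the log2(FPKM + 1) scale, so that changes of weakly expressed genes come out smaller than their ratios, and a gene is said to have risen or fallen where its limma adjusted p was under 0.05. Markers of neurons and muscle were present in every mutant sample, with summed levels of 89.0 to 101 FPKM for 17 neuronal genes and 1115 to 1478 FPKM for 21 muscle genes at 8-12 h. The table held 4 of 18 listed adult ovary genes, which summed to at most 1.54 FPKM in these 6 samples. It held 11 of 15 accessory gland genes, which summed to at most 3.89 FPKM. The ovary sum thus rests on few genes. RNAs that the mother loads into the egg formed the exception, and their values stand beside the genes they moved with.

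The mutated gene itself was still transcribed. The level of sima (chromosome arm 3R, 30058311 to 30121798, BDGP6) was 1.69, 1.97 and 2.22 FPKM in the 8-12 h mutants and 2.56, 2.63 and 2.55 FPKM in the 12-16 h mutants. In controls it was 2.48, 2.40 and 2.49 FPKM and then 3.11, 3.20 and 3.23 FPKM. The mutant groups did not overlap, and the change was 0.28 ± 0.07 (SE, n = 3 per stage, limma adjusted p = 0.00262) in mutants and 0.28 in controls. The direction depended on the scaling of the libraries: after quantile normalization the mutant change was -0.20 and the control change -0.14. A same-strand long noncoding RNA gene lies within sima and could share reads with it.

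Most of the developmental programme of this interval ran in the mutants. Between the stages 4401 genes changed in mutants: 2432 rose, which was 35.8% of the genes tested, and 1969 fell, which was 29%. In controls 2445 genes rose, 36% of those tested, and 2176 fell, 32.1%. The mutant calls met a control call in the same direction for 3659 genes, or 83.1%, of which 2081 rose and 1578 fell in both genotypes, while 19 genes were called in opposite directions. Of the 1443 genes that changed by at least 1 on the log2 scale in mutants, 1350 were called in the same direction in controls. For 124 of the 1443 the change itself differed between genotypes by the limma test, beside 274 of all 6784 genes tested. A further 871 genes were called in controls and not in mutants although their difference did not pass the test, so a missing call is no sign of a missing change. The share of calls that were rises was 55.3% as deposited, but 36.5% after quantile normalization and 40.2% after median centring, which moved the median change of all genes from 0.02 to -0.22 and -0.19. Directions of small changes therefore depend on the scaling, and counts that turn with it are given with their group.

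**Figure D1:**
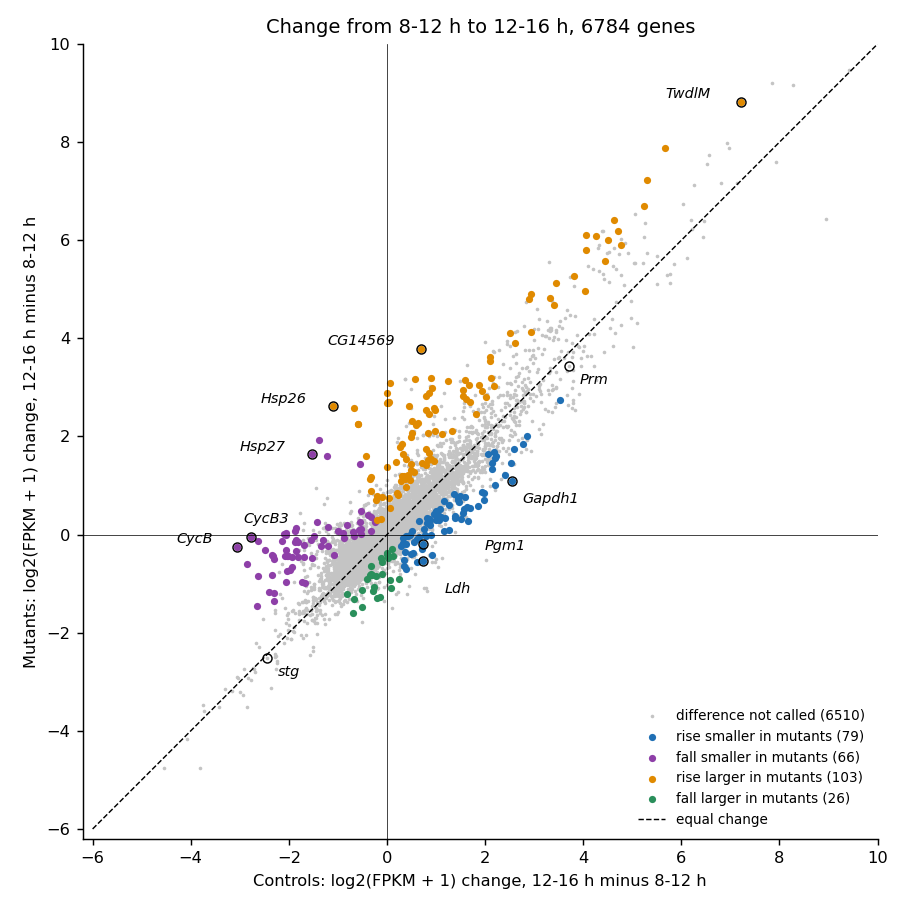
Change from 8-12 h to 12-16 h on the log2(FPKM + 1) scale in controls (horizontal axis) and in mutants (vertical axis), 1 point per gene for the 6784 genes tested; coloured points are the 274 genes whose change differed between genotypes. Most genes lie along the diagonal, with a Pearson r of 0.91 across genes, and CycB and Hsp27 stand above it while Gapdh1 stands below it.

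The largest rises in mutants were in genes of the cuticle. Cpr65Ea, a chitin-binding cuticle protein gene (3L, 7086003 to 7086608, BDGP6), was at 0, 1.76 and 1.46 FPKM at 8-12 h and at 1643, 1444 and 1009 FPKM at 12-16 h in mutants. In controls it was at 0 in all 3 samples at the earlier stage and at 557, 589 and 958 FPKM at the later one. The mutant change was 9.47 ± 0.30 (SE, limma adjusted p = 3.6e-12), beside 9.41 in controls. The next 5 by size were Lcp65Ag1 with a rise of 9.21, Lcp65Ag2 with 9.16, TwdlM with 8.83, TwdlL with 7.98 and CG15212 with 7.89, the first 4 of them cuticle protein genes. Lcp65Ag1 and Lcp65Ag2 are near-identical copies whose reads cannot be assigned with certainty. All 6 also rose in controls, and TwdlM was the only one of the 6 whose difference between genotypes was called.

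The largest falls were in genes of the earlier embryo. Tom, Ocho and BobA, members of the Bearded family that restrains Notch signalling, fell by 3.59, 3.51 and 3.51 on the log2 scale in mutants. Tom went from 327, 259 and 283 FPKM to 20.5, 17.8 and 33.6 FPKM in mutants, and from 354, 348 and 369 FPKM to 30.4, 23.2 and 25.4 FPKM in controls. The other 3 were CG13064, CG13427 and yellow-e3, with changes of -4.76, -4.75 and -4.17. All 6 fell in controls too, and none of the 6 differences between genotypes was called.

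Differentiation of neurons went ahead. Of 16 neuronal genes tested, 14 rose and none fell in mutants, the same counts as in controls. Over all genes tested, 35.8% rose in mutants and 36% in controls. The median change of the neuronal genes was 1.14 in mutants and 1.16 in controls. No difference was called, where 4.04% of all genes tested had one. The gene nSyb, which encodes the synaptic vesicle protein neuronal synaptobrevin, was at 4.14, 5.45 and 2.92 FPKM in the 8-12 h mutants and at 23.6, 19.8 and 19.2 FPKM in the 12-16 h mutants. Its mutant change was 2.11 ± 0.16 (SE, limma adjusted p = 2.24e-08) against 2.23 in controls. The active zone scaffold gene brp rose by 1.63, beside 1.78 in controls, and Gad1, which makes the transmitter GABA, rose by 1.74, beside 1.76; an opposite-strand gene overlaps Gad1.

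Genes of neural precursors fell at the same time. Of 12 genes of neuroblasts and of the Notch response in the neurogenic ectoderm, 11 fell in mutants and 12 in controls, with medians of -1.66 and -1.76. Over all genes tested, 29% fell in mutants and 32.1% in controls. The Notch target E(spl)mgamma-HLH fell from 62.4, 47.0 and 62.3 FPKM to 5.74, 7.12 and 11.5 FPKM in mutants, a change of -2.71 beside -2.73 in controls. The changes of mira, an adaptor that sorts fate determinants into the daughter cell, were -1.71 and -2.01. The gene mira lies within the span of a same-strand gene, Hs6st, and could share reads with it. The changes of cas, a late temporal factor of neuroblasts, were -1.54 and -1.64. The zinc-finger gene nerfin-1 had the widest gap of the 12, -2.02 in mutants and -1.43 in controls, and that difference missed the threshold (limma adjusted p = 0.0551). The 8 segment polarity genes tested, en among them with -1.31, all fell in both genotypes, with medians of -0.76 and -0.77.

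Muscle genes rose together. Of 19 tested, 17 rose in mutants and 18 in controls, where 35.8% and 36% of all genes tested rose. None fell, and the medians were 2.19 and 2.45. The myosin light chain gene Mlc2 was at 102, 153 and 91.5 FPKM and then at 900, 904 and 809 FPKM in mutants, whereas controls went from 53.2, 77.6 and 97.4 FPKM to 712, 747 and 841 FPKM. Its change was 2.94 ± 0.19 (SE, limma adjusted p = 3.69e-09) in mutants and 3.35 in controls. The thick filament gene Prm rose by 3.44 and 3.70, and Mf by 4.39 and 4.58, although a gene on the opposite strand spans Mf. One member differed: Act87E, an actin of muscle, rose by 2.10 in mutants and by 1.33 in controls (difference 0.77 ± 0.19 SE, limma adjusted p = 0.0408), a call lost in 12 of 20 alternative settings.

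Mitochondrial genes also went ahead. All 12 genes of pyruvate entry and the citric acid cycle that were tested rose in mutants and 9 rose in controls, with medians of 0.81 and 0.59. The share of all genes tested that rose was 35.8% in mutants and 36% in controls. The mitochondrial malate dehydrogenase gene Mdh2 was at 9.70, 12.6 and 7.47 FPKM and then at 49.1, 57.1 and 52.8 FPKM in mutants, a change of 2.33 beside 1.87 in controls. Of 44 genes of the respiratory chain and ATP synthase, 36 rose in mutants and none fell, while in controls 25 rose and 1 fell, with medians of 0.73 and 0.43. After quantile normalization 33 rose and 4 fell in mutants. No difference of change was called for any of these genes, so the larger counts in mutants do not show a larger response. Genes of mitochondrial ribosome proteins rose at 28 of 44 in mutants and 33 of 44 in controls, a count that fell to 9 in mutants after median centring.

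**Figure D2:**
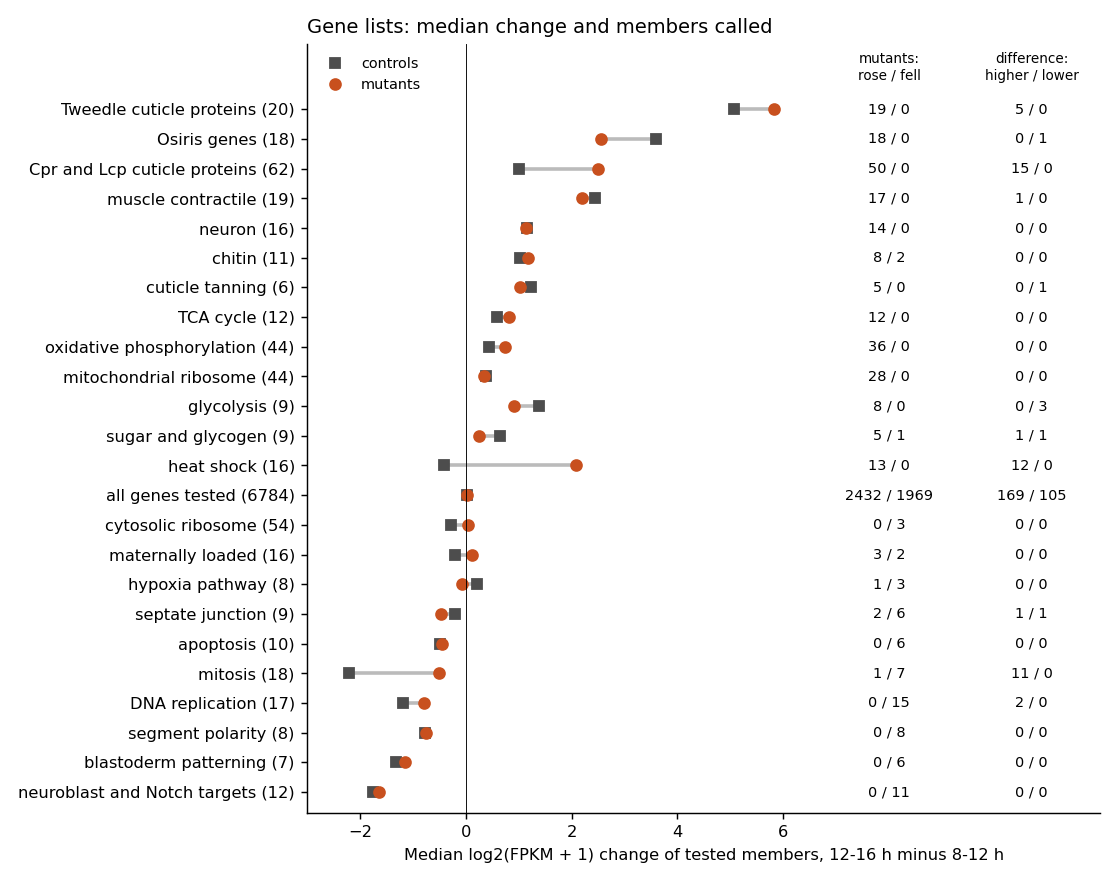
Median change of the tested members of each gene list from 8-12 h to 12-16 h, on the log2(FPKM + 1) scale, in mutants and controls, with the numbers of members that rose or fell in mutants, and of those whose change was higher or lower than in controls, beside each list. The markers of the 2 genotypes lie close together for neurons, neuroblasts and muscle, and apart for mitosis (-0.52 and -2.22) and heat shock (2.09 and -0.42).

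The test of the difference itself singled out 274 genes. The change was higher in mutants for 169, which was 2.49% of the genes tested, and lower for 105, which was 1.55%. They fell into 4 kinds by the control change. A rise of controls was smaller in mutants for 79 genes, of which 43 still rose, 28 had no mutant call and 8 fell. At 8-12 h, 21 of these 79 were called higher in mutants than in controls and 5 lower. A fall of controls was smaller in mutants for 66 genes, of which 14 still fell, 44 had no mutant call and 8 rose. Already at 8-12 h, 20 of these 66 were called lower in mutants than in controls and none higher. For 103 genes a mutant rise exceeded the control change, and for 26 a mutant fall did. Of the 103, 17 were called lower in mutants at 8-12 h and none higher, and of the 26, 1 was lower and 6 higher. The count of 274 depended on single libraries, lying between 62 and 604 when each of the 12 was left out in turn. The number of alternative settings in which a call was lost is therefore given with the genes named below. The call was kept in all 20 settings for CycB, CycB3, Hsp27, Pgm1, Cyp4e1, CG14569, CG14565 and Gapdh1.

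Among the rises that fell short, those of sugar metabolism stood out in the mutants. Of 9 glycolytic genes tested, 8 rose in mutants and 8 in controls and none fell, but the median change was 0.91 in mutants and 1.38 in controls, and the difference was called lower for 3 members and higher for none. The 3 were Gapdh1, Pfk and Ldh. The pseudocount of 1 weighs on these medians, as Tpi, Hex-C and PyK averaged 0.25, 0.77 and 0.83 FPKM in the 8-12 h mutants. As ratios of mean FPKM, Tpi, Pglym78, Pgi and Hex-C rose more in mutants than in controls. Gapdh1, Pfk, Ald1 and PyK rose less by that ratio, and Ldh rose in controls only. Lower differences made up 1.55% of all genes tested. After quantile normalization or median centring, 7 of the 9 rose in mutants and 1 fell.

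Gapdh1 encodes glyceraldehyde-3-phosphate dehydrogenase (2R, 7791901 to 7793380, BDGP6). Its level in mutants was 4.26, 3.45 and 2.40 FPKM at 8-12 h and 9.34, 7.92 and 7.37 FPKM at 12-16 h. In controls it was 7.46, 7.34 and 7.83 FPKM and then 51.9, 37.6 and 59.5 FPKM. The 2 mutant groups did not overlap, and the mutant level at the later stage was about that of the controls at the earlier one. The change was 1.09 ± 0.19 (SE, limma adjusted p = 0.000146) in mutants and 2.54 in controls, a difference of -1.45 ± 0.28 (SE, limma adjusted p = 0.015). As a ratio of mean FPKM the rise was 2.44-fold in mutants and 6.58-fold in controls.

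Pfk encodes phosphofructokinase, which commits sugar to glycolysis. It was at 1.92, 1.78 and 1.56 FPKM and then at 3.49, 3.85 and 3.41 FPKM in mutants, whereas controls went from 3.17, 4.02 and 4.01 FPKM to 12.1, 10.5 and 12.9 FPKM. The rise was 0.74 ± 0.10 in mutants and 1.44 in controls, and the difference was -0.70 ± 0.14 (SE, limma adjusted p = 0.0155). Its call was lost only in the fit to the 12 samples of the contrast (limma adjusted p = 0.0701), where the 20 settings ranged from 0.000973 to 0.0701.

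Ldh encodes lactate dehydrogenase, which turns pyruvate into lactate. In mutants it was at 9.45, 7.46 and 6.49 FPKM and then at 4.61, 4.14 and 6.55 FPKM, and the stages overlapped. Controls had 26.9, 28.7 and 23.0 FPKM and then 53.8, 33.2 and 47.3 FPKM. The mutant change was -0.54 ± 0.24 (SE, limma adjusted p = 0.0574), the control change 0.73, and the difference -1.27 ± 0.33 (limma adjusted p = 0.0478). That difference was lost in 13 of 20 settings, 9 of them fits without 1 library, with values between -1.58 and -1.12 over all 20.

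Pgm1, a phosphoglucomutase that links glycogen and galactose to glycolysis, had no called rise in mutants. Its mutant levels were 10.4, 10.1 and 10.8 FPKM and then 11.4, 8.42 and 7.46 FPKM, with overlapping stages, while controls went from 19.6, 20.9 and 22.0 FPKM to 34.6, 38.7 and 33.3 FPKM. The mutant change was -0.20 ± 0.11 (limma adjusted p = 0.113), the control rise 0.74, and the difference -0.94 ± 0.15 (SE, limma adjusted p = 0.0077). Pgm1 belonged to 9 tested genes of glycogen, trehalose and sugar transport, of which 5 rose and 1 fell in mutants as deposited, but 1 rose and 4 fell after quantile normalization and 4 rose and 4 fell after median centring. Gpo1, a mitochondrial glycerol-3-phosphate dehydrogenase of the same list, went the other way, with a rise of 1.74 in mutants and 0.80 in controls (difference 0.94 ± 0.23 SE, limma adjusted p = 0.0388), a call lost in 11 of 20 settings.

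The other glycolytic genes rose in mutants without a called difference. Aldolase, Ald1, rose by 1.24 beside 1.51 in controls, the phosphoglycerate mutase gene Pglym78 by 1.70 beside 1.38, pyruvate kinase, PyK, by 0.72 beside 1.13, and phosphoglucose isomerase, Pgi, by 0.49 beside 0.40. These rises started from lower levels: Tpi, the triose phosphate isomerase gene, was at 0.328, 0.282 and 0.149 FPKM and then at 2.08, 2.17 and 2.21 FPKM in mutants. The control levels were 2.86, 4.15 and 4.92 FPKM and then 20.7, 11.8 and 23.8 FPKM. Its log2 change was 1.33 in mutants and 1.96 in controls (limma adjusted p of the difference = 0.311), yet the ratio of the mean FPKM was 8.50 in mutants and 4.72 in controls. For a gene this low the order of the genotypes thus depended on the pseudocount: with 0.1 in place of 1, the difference was 0.53 rather than -0.62. Hex-C, a hexokinase, rose by 0.91 in mutants beside a control change of 0.16 that was not called, and its difference was not called either (limma adjusted p = 0.0863), with a gene on the opposite strand spanning it.

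None of the hypoxia pathway genes tested differed in its change, where 4.04% of all genes tested did. Of 8 tested, 1 rose and 3 fell in mutants, and 4 rose and 2 fell in controls. Among all genes tested 35.8% rose and 29% fell in mutants. After quantile normalization, and after median centring, none of the 8 rose and 5 fell in mutants. The prolyl hydroxylase gene Hph fell by 0.36 in mutants, from 3.27, 2.93 and 3.10 FPKM to 2.14, 2.05 and 2.42 FPKM, a call lost in 5 of 14 settings. Its control levels were far higher, a mean of 12.2 FPKM and then 11.5 FPKM, with a change of -0.07 that was not called. Genes on both strands overlap Hph.

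**Figure D3:**
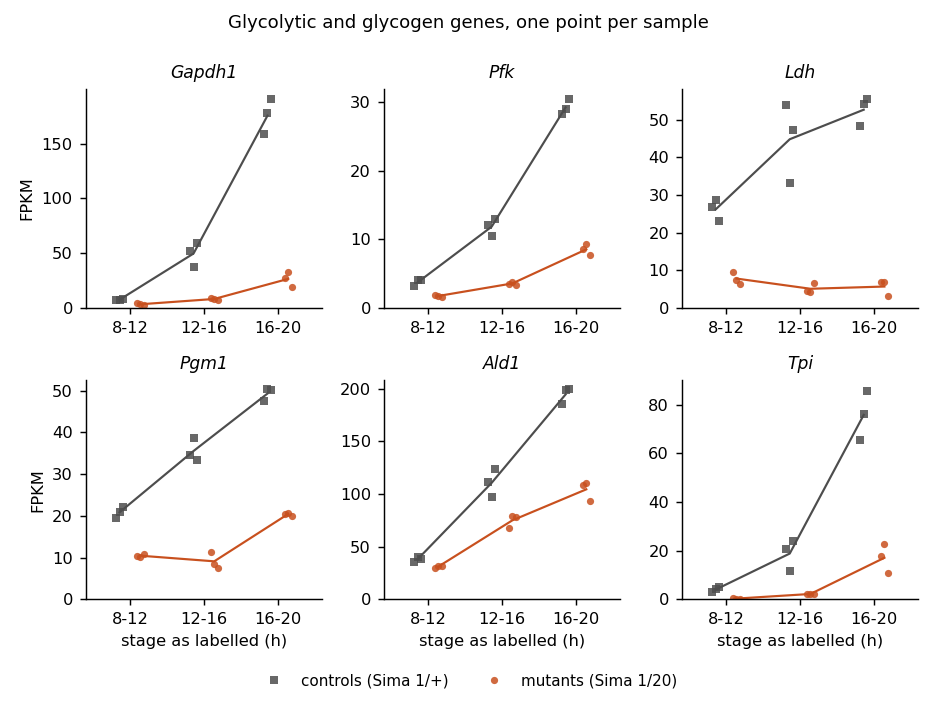
FPKM of genes of sugar metabolism at 8-12 h, 12-16 h and 16-20 h in mutants and controls, 1 point per sample and lines through the group means. Gapdh1, Pfk, Pgm1 and Ldh lie lower in mutants than in controls at all 3 stages, and Gapdh1 at 12-16 h reaches 7.37 to 9.34 FPKM in mutants and 37.6 to 59.5 FPKM in controls.

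Many falls that fell short were in genes of mitosis. Of 18 tested, 17 fell and 1 rose in controls, whereas 7 fell and 1 rose in mutants, with median changes of -2.22 and -0.52. Over all genes tested, 32.1% fell in controls and 29% in mutants. The difference was called for 11 members, all higher in mutants, where 2.49% of all genes tested were higher. Leaving out 1 library at a time gave 4 to 13 such members. After quantile normalization 9 fell and none rose in mutants, and after median centring 10 fell. The 11 were the cyclins CycA, CycB and CycB3, the kinase gene polo and its partner bora, the checkpoint gene BubR1, the spindle genes Klp61F and asp, and Incenp, pav and tum, which act in chromosome segregation and cytokinesis.

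CycB encodes the B-type cyclin of mitosis (2R, 22803521 to 22806948, BDGP6). In mutants it was at 137, 189 and 284 FPKM at 8-12 h and at 128, 260 and 131 FPKM at 12-16 h. The control samples had 119, 123 and 128 FPKM and then 15.1, 21.9 and 8.21 FPKM. The mutant stages overlapped, and every 12-16 h mutant sample lay above every control sample of the same stage. The mutant change was -0.25 ± 0.35 (SE, limma adjusted p = 0.544), the control change -3.05, and the difference 2.80 ± 0.49 (SE, limma adjusted p = 0.0125).

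CycB3 followed the same pattern, with 79.1, 93.6 and 173 FPKM and then 73.9, 170 and 91.1 FPKM in mutants. Controls went from 79.2, 69.4 and 71.6 FPKM to 10.8, 14.3 and 5.98 FPKM. Its difference was 2.73 ± 0.49 (SE, limma adjusted p = 0.0133). For polo, a mitotic kinase, the changes were -0.59 without a call in mutants and -2.85 in controls (difference 2.26, limma adjusted p = 0.0151), and for Incenp, a chromosomal passenger subunit, they were -0.83 and -2.63, both called (difference 1.79, limma adjusted p = 0.0133). The polo and Incenp differences were lost only in the fit to the 12 samples of the contrast. The calls of bora, BubR1, CycA, pav and asp were each lost in 7 to 11 of 20 settings, that of Klp61F in 3 and that of tum in 2, and a gene on the opposite strand overlaps CycA.

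Not all genes of the cell cycle behaved in this way. The phosphatase gene stg, fly Cdc25, whose transcription sets the timing of embryonic mitoses, was at 100, 88.4 and 102 FPKM and then at 13.8, 15.2 and 19.6 FPKM in mutants. Control levels went from 121, 108 and 106 FPKM to 22.3, 17.4 and 19.2 FPKM. The changes were -2.52 and -2.45, and the difference of -0.07 ± 0.16 was not called (limma adjusted p = 0.84). The kinase genes aurA, with -1.94 and -2.29, and Mps1, with -1.38 and -1.43, also fell in both genotypes without a called difference.

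Replication genes mostly went down in mutants as well. Of 17 tested, 15 fell in mutants and 16 in controls, and none rose, where 29% and 32.1% of all genes tested fell. The helicase subunits Mcm2 and Mcm5 changed by -1.49 and -1.54 in mutants, beside -1.64 and -1.56 in controls, and the sliding clamp PCNA by -0.79 beside -1.20. The 2 members with a called difference both regulate the licensing of origins: geminin, an inhibitor, had a mutant change of -0.15 without a call and a control change of -1.81 (limma adjusted p of the difference = 0.019), and dup, fly Cdt1, had 0.25 without a call and -1.42 (limma adjusted p = 0.0436). The dup call was lost in 11 of 20 settings and that of geminin in 3. Higher differences made up 2.49% of all genes tested.

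Markers of maternal RNA stood apart in the same samples. CycB, CycB3 and polo are also known as RNAs that the mother supplies to the egg. The summed level of 19 maternal genes was 155, 205 and 341 FPKM in the 8-12 h mutants and 214, 347 and 225 FPKM in the 12-16 h mutants, but 140 to 147 FPKM and 121 to 141 FPKM in the control groups. None of the 19 was at 0 in all 3 samples of any of these groups. Replicate 3 of the 8-12 h mutants and replicate 2 of the 12-16 h mutants were the highest of their groups, both for this sum and for the sum of the 18 mitosis genes, which was 594, 676 and 1096 FPKM and then 416, 855 and 464 FPKM in mutants. In controls the mitosis sum was 557 to 600 FPKM and then 69.9 to 118 FPKM.

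Single maternal genes showed the same samples on top. The anterior determinant bcd was at 8.12, 14.3 and 30.6 FPKM and then at 14.4, 37.0 and 18 FPKM in mutants, while controls went from 5.41, 5.81 and 5.82 FPKM to 0.974, 2.24 and 0.191 FPKM. The RNA-binding repressor gene smg was at 44.9, 75.2 and 169 FPKM and then at 66.1, 148 and 72.6 FPKM in mutants, while controls went from 30.2, 28.9 and 32.5 FPKM to 7.10, 14.0 and 6.17 FPKM. In the highest library of each mutant stage smg alone gave 169 of the 341 FPKM and 148 of the 347 FPKM of the maternal sum. Of the 16 maternal genes tested, 3 rose and 2 fell in mutants and 4 rose and 8 fell in controls, and none differed in its change. After quantile normalization 2 rose and 6 fell in mutants, and after median centring 2 rose and 5 fell. The differences of bcd and smg were 2.21 (limma adjusted p = 0.0559) and 1.82 (limma adjusted p = 0.0799). Without both of the libraries with the highest maternal sums, a setting chosen after seeing the data, 13 mitosis genes and 4 maternal genes, bcd and smg among them, differed. Of 7 blastoderm patterning genes tested, 6 fell in mutants and 7 in controls. Their list summed to 22.8 to 27.0 FPKM in the 12-16 h mutants and 23.6 to 28.7 FPKM in the controls, but to 45.2 to 51.9 FPKM and 53.7 to 58.0 FPKM at 16-20 h, near the 8-12 h sums, so it does not order these samples by age. The part of maternal RNA in the mitosis result was not tested.

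**Figure D4:**
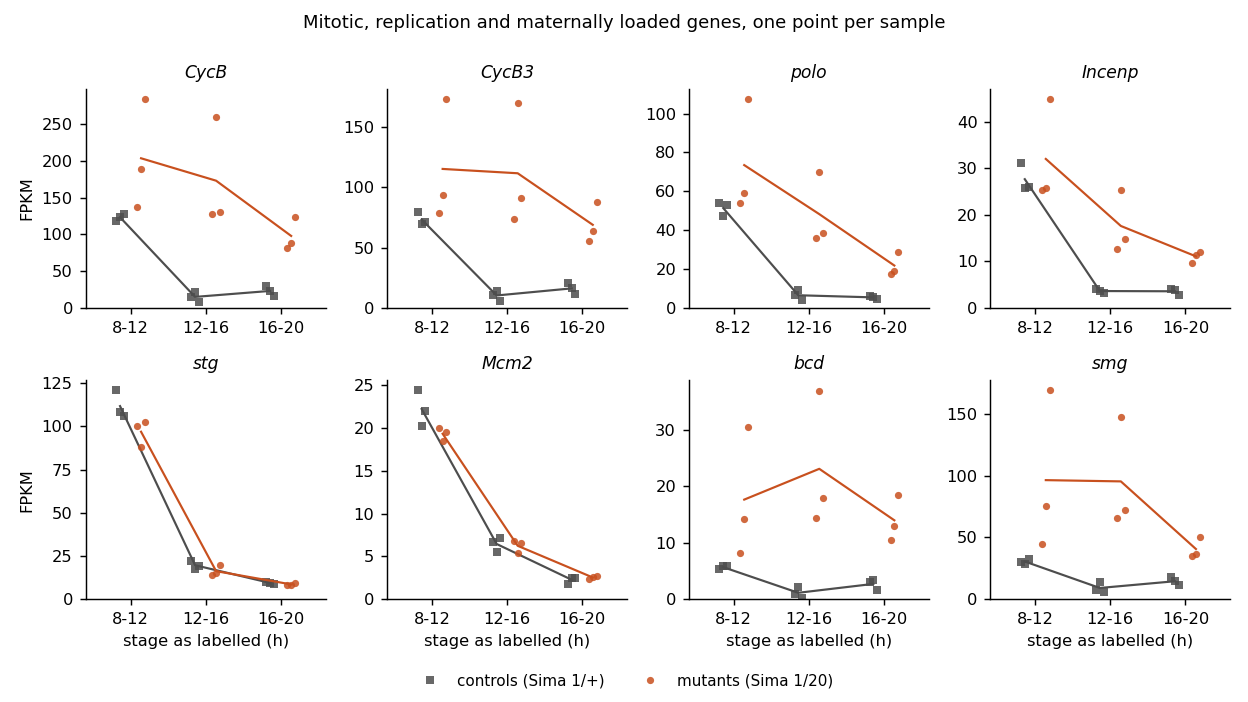
FPKM of cell cycle and maternal genes at 8-12 h, 12-16 h and 16-20 h in mutants and controls, 1 point per sample and lines through the group means. CycB stays between 128 and 260 FPKM in the 12-16 h mutants against 8.21 to 21.9 FPKM in controls, whereas stg falls in both genotypes, to 13.8 to 19.6 FPKM in mutants.

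Heat shock genes rose in mutants. Of 16 tested, 13 rose and none fell in mutants, where 35.8% of all genes tested rose. In controls 3 fell and none rose, and the medians were 2.09 in mutants and -0.42 in controls. The difference was called for 12, all higher in mutants, beside 2.49% of all genes tested. The 16 include 6 near-identical copies of Hsp70 whose reads cannot be assigned with certainty, so these 6 do not count as separate genes. The small heat shock gene Hsp27, a chaperone that keeps unfolded proteins soluble (3L, 9384063 to 9385694, BDGP6), was at 159, 63.9 and 55.2 FPKM and then at 240, 447 and 161 FPKM in mutants. The controls went the other way, from 576, 437 and 329 FPKM to 149, 178 and 129 FPKM. The mutants started below the controls and ended with a range that overlapped theirs. The changes were 1.63 ± 0.41 and -1.53, and the difference was 3.16 ± 0.58 (SE, limma adjusted p = 0.0133).

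The other members with a called difference outside the Hsp70 genes were Hsp26 with 3.72, Hsp23 with 3.30, Hsp68 with 3.25, DnaJ-1 with 1.47 and Hsp83 with 1.21. The calls of DnaJ-1, Hsp83 and Hsp23 were lost in 11, 7 and 7 of 20 settings, and those of Hsp26 and Hsp68 in 1 each. A pseudogene next to Hsp27, CR43482, had a difference of 2.82, lost in 6. The control changes of Hsp26, Hsp68, DnaJ-1 and Hsp83 were -1.10, -0.66, -0.34 and -0.33, none of them called. Mutant replicate 1 at 8-12 h stood apart: the summed level of 17 heat shock genes was 7119 FPKM there and 2559 and 2939 FPKM in the other two. At 12-16 h the mutant sums were 21574, 15157 and 13542 FPKM, and the control sums went from 9123 to 11607 FPKM to 6158 to 9575 FPKM. Leaving out 1 library at a time gave 5 to 13 called members. How warm the embryos were kept at any step is not given in the labels, and its part in the heat shock values was not tested.

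Many genes rose more in mutants than in controls, and the cuticle was again prominent among them. Of 62 genes of cuticle proteins of the Cpr, Lcp and related families, 50 rose in mutants and 40 in controls and none fell, with medians of 2.50 and 1.01, and 15 differences were called, all higher in mutants. Leaving out 1 library at a time gave 5 to 31. After quantile normalization 43 rose and 7 fell in mutants. Of 20 Tweedle genes, which encode structural proteins of the cuticle, 19 rose in each genotype and 5 differed, all higher, with 0 to 10 in the fits without 1 library. Both counts of higher differences stand against 2.49% of all genes tested, and the counts of rises against 35.8% in mutants and 36% in controls.

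Cpr67Fa1 (3L, 10889990 to 10890700, BDGP6) was at 0.107, 0 and 0 FPKM and then at 95.0, 96.3 and 72.3 FPKM in mutants. Its control levels were 0.105, 0.342 and 0 FPKM and then 25.5, 16.5 and 47.0 FPKM. The 12-16 h groups did not overlap, and control replicate 3 was the nearest to the mutants. The changes were 6.41 ± 0.25 and 4.62, and the difference 1.79 ± 0.35 (SE, limma adjusted p = 0.0156). TwdlM, at 459, 535 and 405 FPKM in the 12-16 h mutants, was at 182, 90.7 and 318 FPKM in the controls, with the same control sample highest, and its difference of 1.60 was lost in 11 of 20 settings. Cpr65Ax1, with a difference of 2.22 lost in 8, has a near-identical neighbour.

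The 2 largest excesses outside the heat shock genes were of genes with no described role in the annotation. CG14569 (3L, 21730725 to 21731550, BDGP6) was at 0.276, 0.277 and 0.195 FPKM and then at 15.9, 22.9 and 11.7 FPKM in mutants. In controls it was at 0.361, 0.393 and 0.419 FPKM and then at 0.583, 0.480 and 3.84 FPKM. The mutant change was 3.79 ± 0.32 and the control change 0.69 without a call, a difference of 3.10 ± 0.46 (SE, limma adjusted p = 0.00354). Its near neighbour CG14565 reached 4.85, 18.7 and 5.15 FPKM in mutants and at most 0.194 FPKM in controls (difference 3.02, limma adjusted p = 0.00341). At 16-20 h both genes stood at 331 FPKM or more in every sample of both genotypes.

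**Figure D5:**
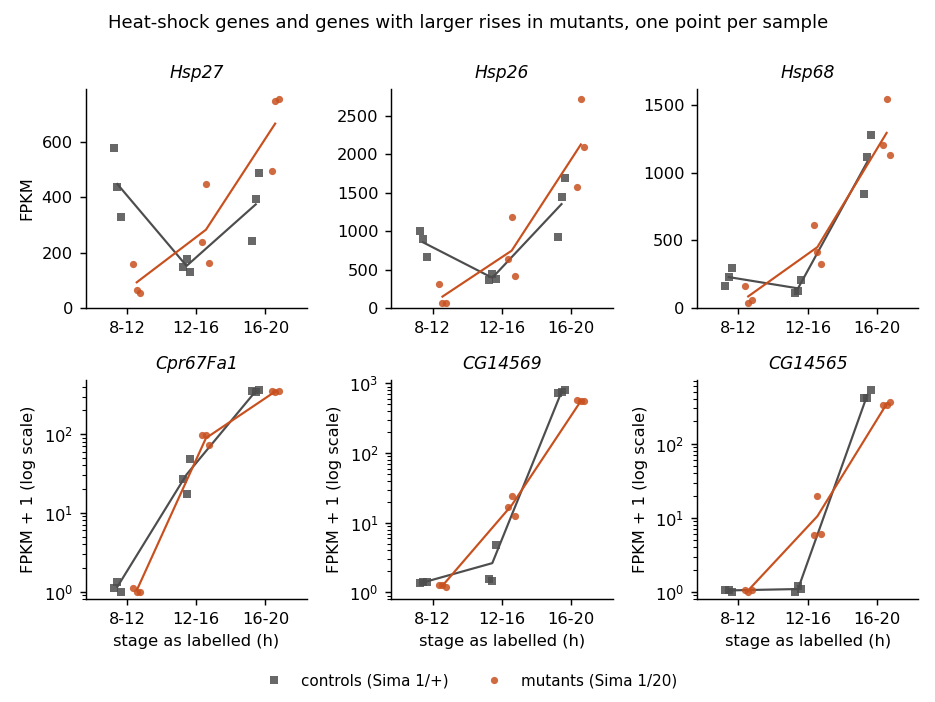
FPKM of genes that changed more, or in the other direction, in mutants at 8-12 h, 12-16 h and 16-20 h, 1 point per sample and lines through the group means; panels with a log axis show FPKM + 1. CG14569 reaches 11.7 to 22.9 FPKM in the 12-16 h mutants and 0.480 to 3.84 FPKM in controls, and both genotypes stand between 551 and 802 FPKM at 16-20 h.

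Not all groups of cuticle genes rose more in mutants than in controls. All 18 Osiris genes tested, which encode transmembrane proteins of cuticle-forming epithelia, rose in mutants and 17 in controls, with medians of 2.56 and 3.59. Osi24 was the only one with a called difference, a rise of 1.75 in mutants and 2.60 in controls (difference -0.85, limma adjusted p = 0.0466, lost in 12 of 20 settings). Its control mean then went from 10.9 FPKM at 12-16 h to 0.303 FPKM at 16-20 h. The tyrosine hydroxylase gene ple, which starts the pathway to cuticle tanning and to dopamine, was at 0.504, 1.26 and 0.967 FPKM and then at 10.8, 10.6 and 13.7 FPKM in mutants, and reached 18, 17.7 and 17.4 FPKM in controls. Its rise was 2.74 in mutants and 3.53 in controls (difference -0.79, limma adjusted p = 0.0317, lost in 8 settings). Chitin genes moved alike: 8 of 11 rose and 2 fell in each genotype, with Cht7, a chitinase, at 2.92 and 3.11, and Gasp, a chitin-binding protein of the tracheae, at 2.71 and 2.75.

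Genes of the ecdysone response moved both ways. Of 15 tested, 4 rose and 5 fell in mutants, 6 rose and 4 fell in controls, and 2 had a lower change in mutants. Among all genes tested 35.8% rose and 29% fell in mutants, so this split was near the background. Lower differences made up 1.55% of all genes tested. Under quantile normalization 2 rose and 10 fell in mutants, and with median centring 3 rose and 7 fell. The nuclear receptor gene Hr3 was at 1.05, 1.16 and 1.04 FPKM and then at 0.759, 0.733 and 1.02 FPKM in mutants, while controls went from 0.595, 0.586 and 0.659 FPKM to 1.08, 1.15 and 1.05 FPKM. The mutant change was -0.18 (limma adjusted p = 0.0488), a call lost in 8 of 13 settings, and the control change 0.38. The difference was -0.56 ± 0.11 (SE, limma adjusted p = 0.0156, lost in 3 of 19 settings) at levels near 1 FPKM and with a same-strand gene lying in the same region. ImpL2, a secreted protein that binds insulin-like peptides, fell by 0.91 in mutants and by 0.40 in controls (difference -0.51, limma adjusted p = 0.0343, lost in 9 settings). A same-strand gene overlaps ImpL2. The nuclear receptor gene ftz-f1 rose alike, by 2.84 and 3.04, with same-strand long noncoding RNA genes overlapping it. ImpE2 had changes of 0.36 without a call in mutants and 1.60 in controls, a difference that was not called (limma adjusted p = 0.123).

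The remaining large shortfalls of a rise were in 4 genes of no common list. The cytochrome P450 gene Cyp4e1 was at 3.74, 4.58 and 3.59 FPKM and then at 4.84, 4.56 and 5.58 FPKM in mutants, while controls went from 2.15, 3.21 and 3.69 FPKM to 13.1, 12.3 and 9.24 FPKM. Its mutant change was 0.27 without a call beside a control rise of 1.65 (difference -1.38 ± 0.23 SE, limma adjusted p = 0.0111). The neurotrophin gene NT1 rose by 0.59 beside 1.85 (difference -1.26, limma adjusted p = 0.0298), and CG31076 by 0.70 beside 1.98 (difference -1.28, limma adjusted p = 0.043). CG14720 had -0.42 without a call beside a rise of 0.92 (difference -1.33, limma adjusted p = 0.0484). The last 3 calls were lost in 8, 12 and 13 alternative settings. All 4 control means were lower again at 16-20 h than at 12-16 h. Cyp4e1 went from 11.6 to 1.62 FPKM, NT1 from 28.4 to 5.14, CG31076 from 21.8 to 9.49 and CG14720 from 5.68 to 0.27.

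The samples at 16-20 h, which the test of the difference did not contrast, separated the kinds of change. In that comparison 8.64% of all genes tested were higher in mutants and 7.18% lower. Of the 66 genes whose control fall was smaller in mutants, 38 were still higher in mutants at 16-20 h and 1 was lower. CycB was then at 81.8, 88.8 and 123 FPKM in mutants and 30.0, 22.9 and 16.6 FPKM in controls (log2 difference 2.05, limma adjusted p = 0.00159). Of the 79 genes whose rise was smaller, 11 were lower at 16-20 h and 4 higher. Gapdh1, Pfk, Pgm1 and Ldh were among the lower ones, with log2 differences of -2.71, -1.67, -1.23 and -3.06, whereas Cyp4e1 stood at -0.15 and ple at 0.00, both without a call. Of the 103 genes with a larger rise, 4 were higher in mutants and 11 lower. The mean control level at 16-20 h was below that at 12-16 h for 60 of the 79 genes with a smaller rise. It was above that at 12-16 h for 100 of the 103 genes with a larger rise.

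The first principal component of the 18 samples, with 79.4% of the variance, ordered the stages, from -82.8 to -77.5 at 8-12 h to 78.2 to 91.4 at 16-20 h. At 12-16 h it was 7.37, 3.99 and -1.74 for mutants and -20.6, -19.6 and -2.44 for controls, with control replicate 3 near the mutants. The order was reversed at 16-20 h, where mutants had 84.2, 85.9 and 78.2 and every control lay higher, at 87.1, 90.5 and 91.4. Without control replicate 3 of 12-16 h, 487 differences were called in place of 274. The exact age of the embryos within a 4 h collection and the genotype cannot be told apart in these samples.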

How the data were processed

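The authors deposited FPKM values per gene for 18 embryo samples, made from TruSeq stranded mRNA libraries per the labels' protocols. The submitters' processing notes name BDGP6, featureCounts and DESeq2, without saying which step each served. The strand setting of the counting and the library total used for scaling are not given in the sources used here, so depth was estimated from the steps of low FPKM values. Each group had 3 samples.

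From these values log2(FPKM + 1) was computed, and a gene was kept where 3 or more samples reached an FPKM of 1. One limma 3.58.1 model (R 4.3.3, eBayes with trend) of 6 group means was fitted, with Benjamini-Hochberg adjustment over 6784 genes and a threshold of 0.05. Contrasts were the change from 8-12 h to 12-16 h in each genotype, the difference of those changes, and mutants against controls at each stage. The procedure was tested on simulated data. The gene lists were chosen with earlier results of these data known. Named genes were the 6 largest rises and 6 largest falls in mutants whose stages did not overlap, the 6 largest shortfalls of a rise, the 6 of a fall and the 4 largest excesses, any list member, and sima. Alternatives covered the pseudocount, the filter, the scaling, the trend, a replicate block, the samples fitted, a minimum change and each library left out. A setting without both mutant libraries of highest maternal RNA was chosen after seeing the data. Gene positions come from the BDGP6 annotation. Some gene loci are not analysed here.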

Additional observations from a re-analysis of the deposited data

Results flagged for a closer look

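Between mutants and controls the change from 8-12 h to 12-16 h differed for 274 genes by the limma test of the difference itself, and 16 of them were named by size. Differences below are mutant change minus control change on the log2(FPKM + 1) scale, all with an adjusted p under 0.05.

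Rises of controls were smaller in mutants, or were not called there, for Gapdh1 with -1.45, Cyp4e1 with -1.38, CG14720 with -1.33, CG31076 with -1.28, Ldh with -1.27 and NT1 with -1.26.

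Falls of controls were not matched in mutants for Hsp23 with 3.30, Hsp27 with 3.16, CR43482 with 2.82, CycB with 2.80, CycB3 with 2.73 and bora with 2.49. The first 3 of these were called lower in mutants than in controls at 8-12 h, and they rose in mutants. The 3 cell cycle genes had no mutant call. Mutant rises exceeded the control change for Hsp26 with 3.72, Hsp68 with 3.25, CG14569 with 3.10 and CG14565 with 3.02.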

How the results depend on the processing

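The counts of changed genes were 4401 in mutants and 4621 in controls and stayed within 1.5 times of that in every other setting run, with 4054 to 4399 in mutants and 4287 to 4487 in controls when 1 library was left out, except that a minimum log2 change of 1 left 1443 and 1554. The 274 differences were less stable: 164 without a filter, 441 after quantile normalization (202 higher and 239 lower), 43 in the fit to the 12 samples of the contrast, 145 with the minimum change, and 62 to 604 without 1 library, lowest without mutant 8-12 h replicate 2 and highest without mutant 8-12 h replicate 3. The 57 genes that also differed in the same direction at 16-20 h became 29, 123 and 7 in the first 3 of these settings, 11 to 234 without 1 library, and 186 without both mutant libraries of highest maternal RNA, a setting in which 353 differences were called. With the replicate block the counts were 128 and 30. Same-numbered samples did not deviate together, with correlations of -0.22 to 0.12, so they share only a number, and not every sample correlated best with its own number. Of 44 named differences 25 kept their call with the block, 10 in the fit to 12 samples, and 15 to 44 without 1 library. After quantile normalization the sima change was -0.20 in mutants (limma adjusted p = 0.0191) and -0.14 in controls. The cause of these shifts was not tested. At 10.1 to 13.4 M estimated fragments, genes under 1 FPKM were not tested.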

Other observations

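Of 28 tested genes of digestive enzymes, 11 rose and 2 fell in mutants and 7 rose and 2 fell in controls, with medians of 0.72 and 0.32. Among all genes tested 35.8% rose and 29% fell in mutants, so the share of rises was near the background. The maltase gene Mal-A3 rose by 4.20 in mutants and 3.56 in controls, and the trypsin gene kappaTry by 3.40 and 2.51, without a called difference. Mal-A4 alone differed, with 1.19 in mutants and 0.34 in controls (limma adjusted p = 0.0241, lost in 5 of 20 settings). Of 10 genes of programmed cell death, 6 fell in each genotype and none differed. Over all genes tested, 29% fell in mutants and 32.1% in controls. Of the 10, 8 fell in mutants after quantile normalization and 9 after median centring. The death inducers hid, rpr and grim changed by -0.81, -0.75 and -0.55 in mutants, all called.

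Septate junction genes, which seal epithelia, mostly went down in mutants: 6 of 9 fell and 2 rose, beside 4 and 1 in controls. Over all genes tested, 29% fell and 35.8% rose in mutants, and 4.04% differed in their change. The claudin gene sinu changed by -0.47 in mutants and -0.12 in controls (limma adjusted p of the difference = 0.0473), and the polarity gene scrib by 0.31 and -0.21 (limma adjusted p of the difference = 0.0484). Both calls were lost in 14 of 20 settings. The hemocyte gene Pxn, a peroxidase of the extracellular matrix, changed by 0.12 without a call in mutants and by 0.74 in controls. The difference was called (limma adjusted p = 0.0125), a call kept in all 20 settings. After quantile normalization the mutant change itself was -0.20, a called fall (limma adjusted p = 0.0468). Genes on both strands overlap Pxn. Its mean was 4.37 FPKM and then 4.85 FPKM in mutants, and 2.99 FPKM and then 5.69 FPKM in controls. Mutants thus started higher (limma adjusted p at 8-12 h = 0.00512), and no genotype difference was called at 12-16 h. At 16-20 h the control mean was 3.22 FPKM. Of 54 cytoplasmic ribosomal protein genes, 3 fell and none rose in mutants, while 14 fell and 8 rose in controls, and none differed. In controls 32.1% of all genes tested fell and 36% rose. After quantile normalization 36 fell in mutants, and after median centring 8.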
